A study of Mus musculus with 8 samples.

Results

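Scn1a, Snhg11, Ackr4, Cd83, Fxyd2, Isg20, Tbata, Ly75, F830016B08Rik and Slc22a7 are 10 genes that are detected in cortical thymic epithelial cells (cTEC) and are less often named as cortical genes than Psmb11 or Prss16. They were picked by symbol, and all 10 were found among the 27514 genes present in both gene lists of the deposited matrices. Their higher level in adult cTEC than in adult medullary cells (mTEC), their onset by stage and their co-detection with Psmb11 were known when they were picked, so those values are given below as a description. Where a model was fitted to them, its estimates and counts repeat the choice of the genes and support nothing. The data were single-cell RNA sequencing counts of thymic epithelial cells (TEC) of wild-type mice of the strain labelled C57 B6 (CD45.2). Living EpCAM+ cells negative for CD45, which marks blood cells, were sorted. Total TEC came from the embryonic stage E13.5. Ly51+ cells that did not bind the lectin UEA-1 were taken as cTEC from E15.5, E17.5, newborn (NB) and adult mice, and Ly51- cells that bound it as mTEC from adults. There was 1 library for each age below the adult and there were 2 libraries each for adult cTEC and adult mTEC. No treatment or modified allele entered any group. By the study's methods, embryonic thymi were taken apart with trypsin and not enriched, whereas NB and adult thymi were digested with Liberase and enriched on Percoll, so that this change and the step from fetal to NB cannot be told apart. The E13.5, E15.5, NB and replicate 1 adult libraries form data set 1, and the E17.5 and replicate 2 adult libraries form data set 2.

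cTEC form the meshwork of the outer thymus in which immature T cells commit to their lineage and are positively selected. They are known for the thymoproteasome subunit encoded by Psmb11, for the protease encoded by Prss16, for Notch ligands, and for chemokines that draw progenitors in. Most of this programme depends on the transcription factor Foxn1. The 10 genes belong to other functions: ion and anion transport (Scn1a, Fxyd2, Slc22a7), binding and uptake at the cell surface (Ackr4, Ly75, Cd83), interferon response (Isg20, F830016B08Rik), and the less well described Tbata and Snhg11.

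After filtering, 25750 of 28334 deposited cells were kept, and 25438 of them were epithelial-like. The kept libraries held 507 to 8350 cells, 2257967 to 90103548 counted transcripts (UMIs) and a median of 3996 to 11386 UMIs a cell. A pair of libraries shared at most 61 cell barcodes, and at most 1.17% of the barcodes of the smaller library. The label checks followed the sort, since Psmb11 stood at 667 and 1395 CPM (UMIs scaled to a common library total) in adult cTEC against 3.85 and 8.57 CPM in adult mTEC, and Aire at 9.27 and 2.72 CPM against 435 and 399 CPM. Adult cTEC replicate 1 stood apart in that the summed level of 6 mTEC markers was 5743 CPM, against 1038 CPM in replicate 2. That of 6 myeloid markers was 238 against 31.4 CPM, and that of 6 mesenchymal markers was 505 CPM with Col1a1 and Pdgfra at 0, against 313 CPM with Pdgfra and Pdgfrb at 0. The sum of 11 thymocyte markers went the other way, at 48.2 CPM in replicate 1 against 110 CPM in replicate 2. At E17.5, 1742 cells formed a cluster led by haemoglobin genes in which the erythroid gene Alas2 did not mark the cluster, and these cells were kept as epithelial-like. Below, the level of a gene is its CPM over the epithelial-like cells of a library, in which fewer expressing cells and less RNA per cell cannot be told apart.

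In the mouse genome (GRCm38), Scn1a lies on chr2:66270778-66440840, Snhg11 on chr2:158375638-158386145, Ly75 on chr2:60292103-60383303, Isg20 on chr7:78913424-78920396 and Fxyd2 on chr9:45399669-45410278. Ackr4 lies on chr9:104084157-104126933, Tbata on chr10:61171954-61188841, Cd83 on chr13:43784775-43803132 and Slc22a7 on chr17:46432183-46438457. The position of F830016B08Rik is not given here. Exons of Ackr4 overlap those of Acad11, and exons of Ly75 overlap those of Gm13571, in both cases on the opposite strand. Acad11 stood at 24.3 to 36.6 CPM in the 6 cortical libraries and Gm13571 at 0.24 CPM or less. Ackr4 stood at 4.70 CPM in E13.5 TEC, below Acad11. Whether any reads of Acad11 were counted for Ackr4 was not tested.

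RefSeq promoter windows (GRCm38.p6, 250 bases before to 50 after a start) were used for 6 of the 10 genes, namely Scn1a, Snhg11, Ackr4, Isg20, Tbata and Ly75. They were searched on both strands for GACGC, the core letters that Foxn1 is known to bind, because Foxn1 drives much of the cortical programme. The letters were in 2 of the 8 windows of these genes, and 27.2% of all 32851 windows hold them. The sites are shown with those of Psmb11 for comparison, with the matching letters in capitals and GCGTC as the same letters read on the other strand.
Snhg11, chr2:158375572-158375596, plus strand: tcctgcagggGACGCtgcagagcca
Isg20, chr7:78913790-78913814, plus strand: gaggagggacagcctGACGCggcca
Psmb11, chr14:54625061-54625085, plus strand: ctgacaggtgGCGTCttcagagtgt
Psmb11, chr14:54625238-54625262, plus strand: cttctccacaGCGTCctcctcctcc
The Snhg11 letters begin at position -131 from the start, and those of Isg20 at position 41 from the middle of its 3 starts. The windows of Scn1a, Ackr4, Tbata and Ly75 did not hold these letters.

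Scn1a encodes the pore-forming subunit of a voltage-gated sodium channel that is best known from inhibitory neurons. The level was 2.21 CPM in E13.5 TEC, and E15.5, E17.5 and NB cTEC held 2.98, 2.73 and 9.93 CPM. It then stood at 81.1 and 33.4 CPM in adult cTEC replicates 1 and 2, and at 0.060 and 0.149 CPM in adult mTEC, which rested on 1 and 10 UMIs. The fetal levels could not be placed in order, since their 95% counting intervals overlap (1.51 to 3.12 CPM at E13.5 and 2.37 to 3.70 CPM at E15.5). Within data set 1 the adult cTEC level was 8.16 times the NB level (counting interval 6.67 to 9.98), and within data set 2 it was 12.2 times the E17.5 level (9.84 to 15.1). The adult replicates themselves differed 2.43-fold. After each cell was thinned to 2000 UMIs, 15.2% and 7.09% of adult cTEC and 0.52% to 1.74% of younger TEC held a Scn1a UMI. Adult cTEC were above adult mTEC by 1348-fold in data set 1, a ratio whose counting interval ran from 239 to 53532 because of the single mTEC UMI, and by 225-fold (119 to 480) in data set 2.

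Fxyd2, the regulatory gamma subunit of the sodium pump, also reached its highest level in the adult. E13.5 TEC held 13 CPM and E15.5 cTEC 4.80, followed by 123 in E17.5 and 172 in NB cTEC. Adult cTEC held 704 and 562 CPM, and adult mTEC 65.2 and 173. The E13.5 level came mostly from a cluster of 260 cells led by Krtdap and Krt5, in which Fxyd2 stood at 75.3 CPM, whereas it was at 3.06 CPM or less in the other E13.5 epithelial-like clusters. The adult cTEC level exceeded that of mTEC 10.8-fold in data set 1 and 3.26-fold in data set 2.

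Slc22a7, an organic anion transporter known from kidney and liver, followed another course. E13.5, E15.5, E17.5 and NB libraries held 29.8, 132, 262 and 264 CPM. Adult cTEC stood at 102 and 166 CPM and adult mTEC at 20.9 and 34.6. It was thus highest around birth, with E17.5 and NB nearly alike, and the adult level was 0.39 times the NB level in data set 1 and 0.63 times the E17.5 level in data set 2. In the cells with a Psmb11 UMI alone the gap was smaller, with 178 CPM in adult replicate 1 against 273 in NB, and 217 CPM in replicate 2 against 263 at E17.5. The ratio of adult cTEC to mTEC was 4.90 and 4.81 in the data sets.

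Ackr4 encodes an atypical chemokine receptor that takes up CCL19, CCL21 and CCL25 without signalling for migration. E13.5 TEC held 4.70 CPM, E15.5 cTEC 57.1, E17.5 cTEC 97.3 and NB cTEC 99.3. Adult cTEC stood at 208 and 119 CPM and adult mTEC at 2.29 and 1.59. Fetal cTEC from E15.5 on were thus well above E13.5 TEC, and adult mTEC were the lowest. The adult replicates differed 1.75-fold, and replicate 2 was 1.23 times the E17.5 level.

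Ly75 encodes CD205, an endocytic receptor of cTEC and dendritic cells. It was present early, with 61.5 CPM in E13.5 TEC. The E15.5, E17.5 and NB libraries held 185, 145 and 361 CPM, adult cTEC 264 and 174, and adult mTEC 5.53 and 7.84. Ly75 was therefore highest in NB, and the adult replicates lay within the range from E17.5 to NB. In the cells with a Psmb11 UMI, however, adult replicate 1 (409 CPM) was no longer below NB (367 CPM), and replicate 2 held 216 CPM.

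Cd83 encodes a surface protein of the immunoglobulin family that keeps MHC class II on TEC and is needed for CD4 T cells to be selected. From E13.5 through E15.5 and E17.5 to NB the libraries held 44.2, 181, 321 and 265 CPM. Adult cTEC held 146 and 249 CPM against 22.7 and 20.7 in adult mTEC. Over the whole libraries the adult replicates lay below E17.5, whereas in the cells with a Psmb11 UMI replicate 2 (328 CPM) was level with E17.5 (322 CPM) and replicate 1 held 253 CPM. The counting interval of replicate 2 overlapped that of NB, and replicate 1 was at 0.59 times the level of replicate 2.

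Isg20 encodes an interferon-stimulated exonuclease that degrades single-stranded RNA. The E13.5, E15.5, E17.5 and NB libraries held 5.32, 228, 881 and 638 CPM. Adult cTEC held 370 and 855 CPM, and adult mTEC 21.6 and 33.0. From E13.5 to E15.5 the level changed 42.9-fold, the steepest of the 10 genes over that step, while the adult replicates lay on either side of NB and replicate 2 alone came near E17.5. In the cells with a Psmb11 UMI replicate 2 (1096 CPM) was above E17.5 (884 CPM) and replicate 1 (542 CPM) below it.

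F830016B08Rik belongs to the interferon-inducible GTPases. The 3 fetal libraries held 1.17, 8.37 and 10.4 CPM from E13.5 to E17.5. NB cTEC then held 180 CPM and adult cTEC 124 and 164, against 7.82 and 8.57 in adult mTEC. Newborn and adult cTEC therefore stood far above both the fetal libraries and mTEC. The NB level was 21.6 times that of E15.5 in data set 1, and the adult level was 15.8 times that of E17.5 in data set 2. The preparation of the cells changed at the same step, as given above. The summed level of 13 genes of dissociation stress, all 13 of them detected in every library, also moved there, from 428 CPM (E15.5) and 703 CPM (E17.5) to 10362 (NB) and to 18339 and 10658 (adult cTEC). Adult mTEC stood at 9034 and 4925 CPM for those 13 genes. The part of either in the level of F830016B08Rik was not tested.

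Tbata, named for thymus, brain and testis and once called Spatial, is a thymic stromal protein linked to TEC proliferation. E13.5 TEC held 82.6 CPM, and E15.5, E17.5 and NB cTEC held 2091, 5600 and 4557 CPM. Adult cTEC stood at 4065 and 7120 CPM. Adult mTEC still held 714 and 718 CPM. The 2 adult cTEC replicates spanned the E17.5 and NB levels, so no order after E17.5 can be read from the whole libraries. In the cells with a Psmb11 UMI the adult replicates held 6882 and 9432 CPM and stood above E17.5 (5612) and NB (4709).

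Snhg11 is a small nucleolar RNA host gene. The E13.5, E15.5, E17.5 and NB libraries held 19.1, 56.9, 170 and 151 CPM. Adult cTEC held 425 and 299 CPM, and adult mTEC 3.79 and 5.64. Both adult cTEC levels exceeded all younger ones. The step was 2.81-fold from NB in data set 1 and 1.76-fold from E17.5 in data set 2.

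**Figure D1:**
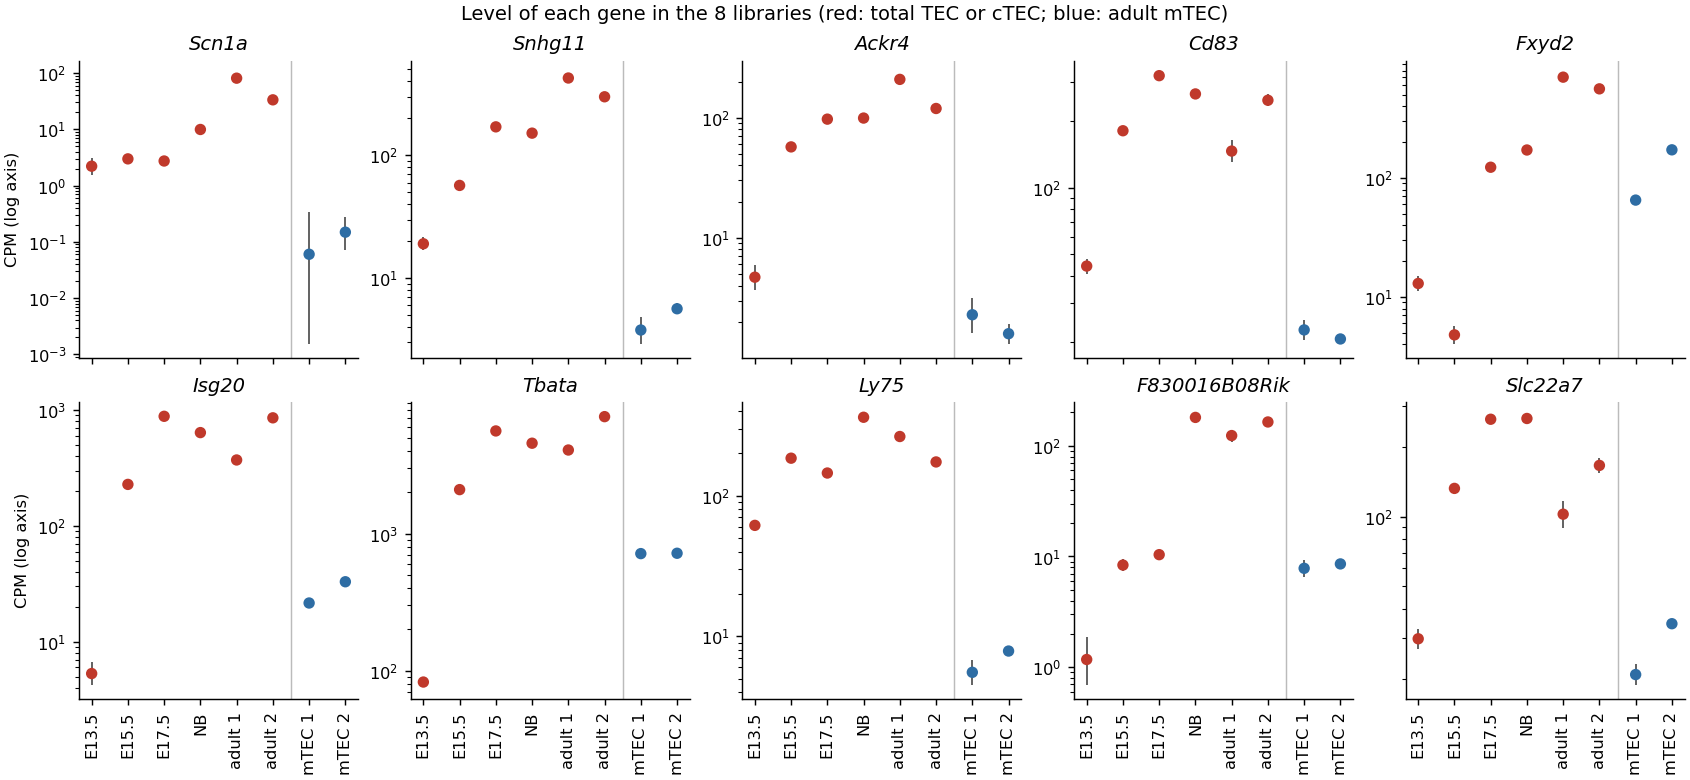
Level of each of the 10 genes in each of the 8 libraries, as CPM on a log axis, with 95% counting intervals as vertical lines; red points are total TEC or cTEC and blue points adult mTEC. Both adult cTEC points lie above both mTEC points in every panel, while Scn1a stays between 2.21 and 9.93 CPM until birth and reaches 33.4 and 81.1 CPM in the adult.

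In the fit of adult cTEC against adult mTEC (edgeR over 15627 genes, with the data set as a term) all 10 genes lay past the threshold on the cTEC side, where 11.2% of all genes were called. This count repeats the choice of the genes and nothing is read from it. Both adult cTEC libraries were above both mTEC libraries for all 10, as for 25.1% of 20278 genes with at least 10 UMIs. The log2 difference ranged from 2.21 ± 0.39 (SE) for Slc22a7 to 8.41 ± 0.60 for Scn1a, with a median of 4.19 against -0.14 over all genes. Ackr4 stood at 6.29, Snhg11 at 6.18, Ly75 at 4.94, Isg20 at 4.33, F830016B08Rik at 4.06, Cd83 at 3.07, Tbata at 2.84 and Fxyd2 at 2.5. Slc22a7 and Fxyd2 thus had the smallest differences. With 1 adult library left out the data set term could not be kept. The Fxyd2 estimate was then 2.22 without cTEC replicate 1, 2.36 without cTEC replicate 2 and 1.68 and 3.21 without mTEC replicate 1 or 2. Tbata estimates were 2.80 and 2.93 without mTEC replicate 1 or 2, and the Slc22a7 estimate was 1.69 without cTEC replicate 2. With all 4 libraries and no such term they were 2.32, 2.92 and 2.22.

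Several of the genes were not evenly low in mTEC. In the larger adult mTEC library, replicate 2, Fxyd2 reached 1170 CPM in a cluster of 91 cells led by Ccl6 and Ccl20 and 507 CPM in a cluster of 995 cells led by Fabp9 and Igf1, against 54.9 CPM in the 833 cells led by Ccl11 and Ccl21a. Tbata ranged from 142 CPM in the cluster led by Lrmp and Rgs13 to 1106 CPM in the 1666 cells led by S100a8 and S100a9. Slc22a7 ranged from 4.92 CPM in the Car8 and Ghrl cluster to 81.4 CPM in the Fabp9 and Igf1 cluster. Isg20 was highest in a cluster led by Bpifa1 and Spink5, at 189 CPM, and in the Car8 and Ghrl cluster, at 139 CPM. Snhg11 stood at 88.6 CPM in the Car8 and Ghrl cluster of 99 cells and at 0.80 to 21.0 CPM elsewhere. Ackr4 stood at 34.5 CPM in the Lrmp and Rgs13 cluster of 168 cells and at 2.82 CPM or less in the others. Scn1a had 10 UMIs in 5 of the 9 clusters, at 0.072 to 0.28 CPM, and none in the other 4, where a count of 0 allows up to 1.41 to 4.92 CPM. The clusters were made from the expression of these same cells, so the values describe them and were not tested.

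**Figure D2:**
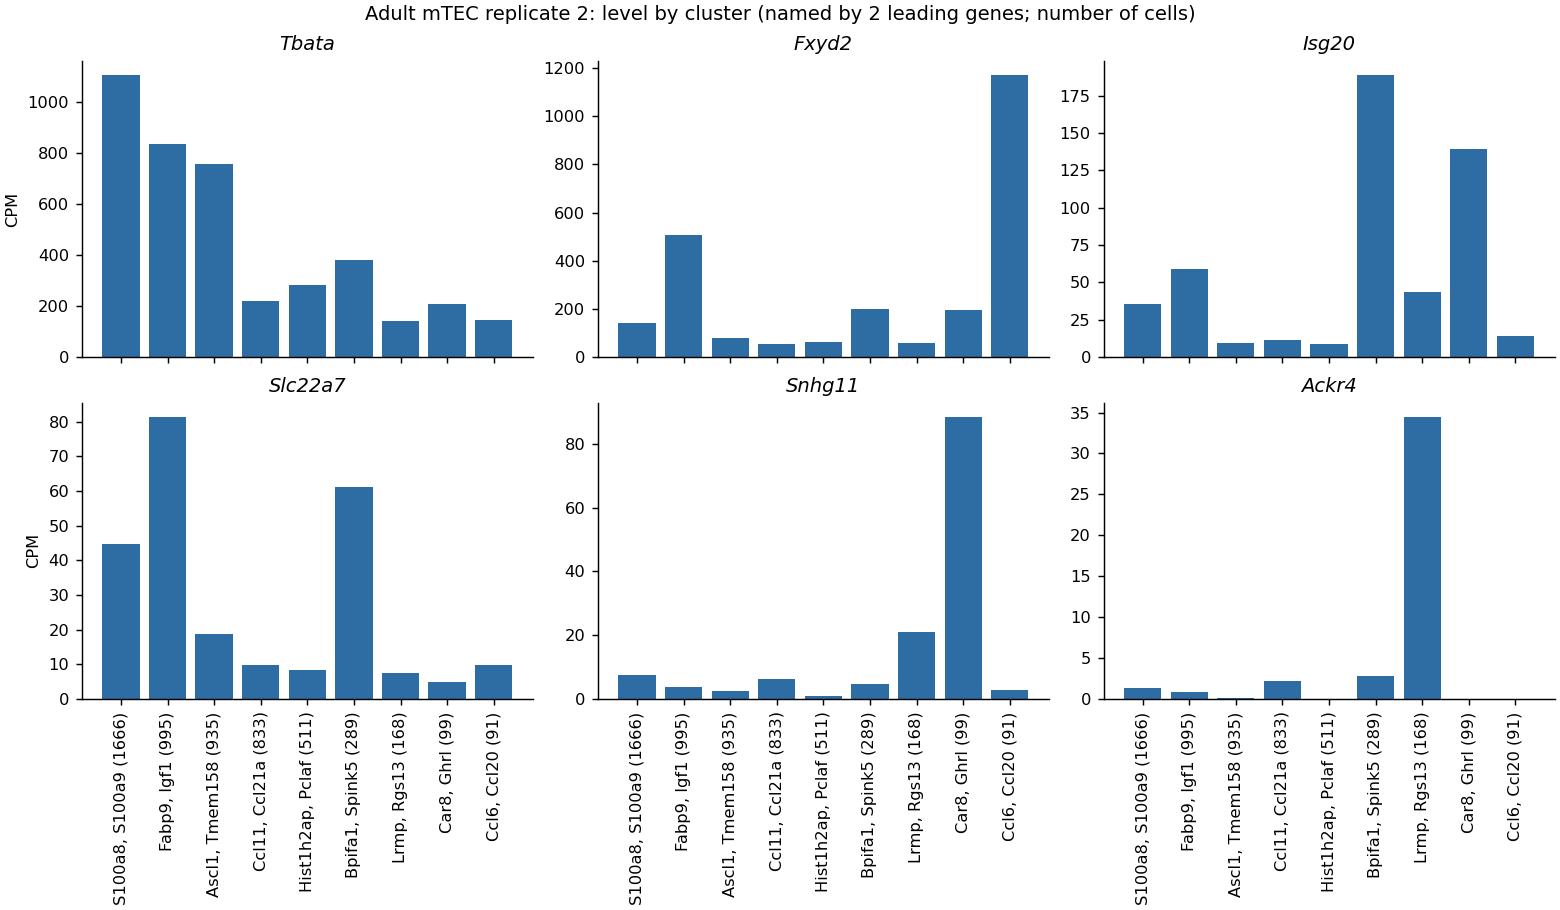
CPM of 6 of the 10 genes in the 9 clusters with at least 50 cells of adult mTEC replicate 2, each bar a cluster named by its 2 leading genes with its number of cells. Fxyd2 peaks at 1170 CPM in the Ccl6 cluster, Snhg11 at 88.6 CPM in the Car8 cluster and Ackr4 at 34.5 CPM in the Lrmp cluster.

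The share of cells with a UMI gave the same direction in the adult. After thinning to 2000 UMIs, 39.9% and 31.2% of adult cTEC held Snhg11, against 0.69% and 1.31% of mTEC. Fxyd2 was closest, with 36.7% and 21.5% of cTEC against 7.70% and 19.0% of mTEC, and Tbata was the most widespread in mTEC, with 34.6% and 47.4% of cells against 60.3% and 63.0% of cTEC. Unthinned, mTEC cells were deeper (median 9499 and 11386 UMIs against 3955 and 7062 in cTEC), and the Fxyd2 share was 52.3% in mTEC replicate 2 against 45.2% and 33.8% in cTEC. Both cTEC libraries then stayed above both mTEC libraries for 7 of the 10 genes. How many of all genes did so was not computed, and nothing is read from this count. As a measure of free RNA, 124 parathyroid-like cells of the E13.5 library (median 4266.5 UMIs) held Cd83 and Ly75 in 1.61% of cells each and Snhg11 in 4.03%, the latter as high as in the E13.5 epithelial-like cells (3.94%, median 7229 UMIs). By this share, E13.5 Snhg11 was not above the parathyroid-like cells, although its level differed within the library, with 58.2 CPM in resting and 12.2 CPM in cycling epithelial-like cells as defined below. Whether the parathyroid-like cells express Snhg11 themselves was not tested. Scn1a stood at 1.71 CPM (1 UMI) in the parathyroid-like cells, so its E13.5 level of 2.21 CPM cannot be set apart from background either. The 166 thymocyte-like cells of NB could not serve as such a measure, since they held Psmb11 at 1673 CPM and Tbata at 6834 CPM, above the NB epithelial-like cells. In the adult cTEC libraries no population of another type was large enough, so the NB and adult shares have no background beside them.

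By stage, the 10 genes came on at different times, where the step from E13.5 to E15.5 is also one from total TEC to sorted cTEC. Onset was taken as the earliest stage at which the level reached 25% of that of the highest stage. Ackr4, Cd83, Isg20, Ly75, Slc22a7 and Tbata reached it at E15.5, as did Psmb11 and Prss16. Isg20 did so narrowly, at 25.9% of its highest level. Ly75 would have done so at E13.5 among the cells with a Psmb11 UMI, which held 92.1 CPM there. In that class Fxyd2 would have passed the limit only in the adult, like Scn1a, with 177 CPM in NB against 1086 and 718 CPM in the adult replicates. Snhg11 followed at E17.5 with 47.0%, after 15.7% at E15.5. Fxyd2 and F830016B08Rik reached the limit in NB, with Fxyd2 at 19.5% just under it at E17.5. Scn1a was the latest at this limit, at 17.4% in NB and past it only in the adult. It shared the latest stage with Snhg11 and Fxyd2 (adult) under a limit of 50%, and with F830016B08Rik (NB) under one of 10%, where Cd83, Ly75 and Slc22a7 came on at E13.5.

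The genes also parted after their onset. Snhg11, Ackr4, Fxyd2 and Scn1a were highest in the adult, Tbata was at 99.9% of its E17.5 level there, and Slc22a7 and Ly75 had come down to 50.8% and 60.5% of their NB level. Psmb11 itself stood at 69.9% of its E17.5 level in the adult. The summed level of the 6 mTEC markers was 292 CPM in NB against 5743 and 1038 CPM in adult cTEC. That of the 6 mesenchymal markers was 32.3 against 505 and 313 CPM. The part of such cells or RNA in the adult levels was not tested. In the trend over the 6 cortical libraries, 4 of the 10 genes lay past the threshold as higher with age, where 4.78% of 14342 genes did so, and nothing is read from this count, since the onset by stage was known when the genes were picked. The steepest log2 slopes per stage were 1.90 for F830016B08Rik, 1.48 for Fxyd2 and 1.35 for Scn1a, and that of Snhg11 was 0.92. Without adult cTEC replicate 1 the Scn1a slope was 1.08, and without replicate 2 it was 1.27.

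**Figure D3:**
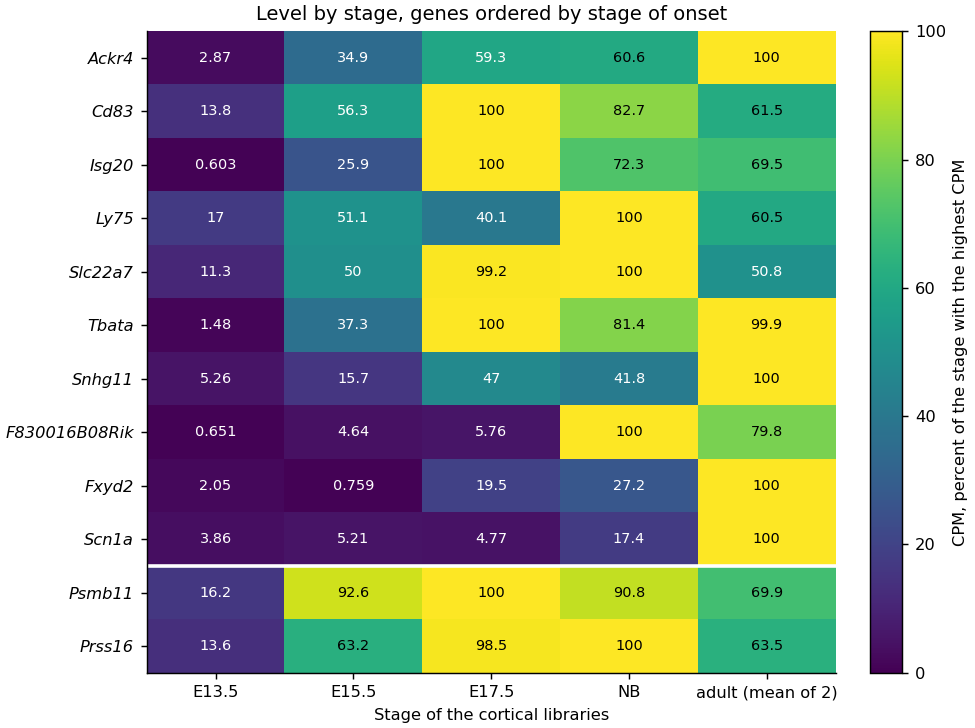
Level of the 10 genes and of Psmb11 and Prss16 at each stage of the cortical libraries, as a percentage of the stage with the highest CPM, with adult as the mean of 2 libraries and the other stages from 1 library each. From top to bottom the 10 genes run from those past 25% at E15.5 to Scn1a, which stands at 17.4% in NB.

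Within a library, most but not all of the 10 genes were found in the cells that held Psmb11. After thinning, a Psmb11 UMI was found in 32.1% of E13.5 cells, and in 84.1%, 88.2% and 82.9% of E15.5, E17.5 and NB cells. In adult cTEC the share was 36.4% and 56.9%. An odds ratio above 1 means that a gene was found more often in the cells with Psmb11. For Tbata it ran from 2.68 at E13.5 to 8.79 and 24.3 in the adult replicates, and for Slc22a7 it was 7.30 and 28.6 in the adult. Cd83 stood at 7.88 and 12.9, Isg20 at 4.75 and 7.22, Snhg11 at 4.57 and 4.07, Ly75 at 4.02 and 4.35, and Fxyd2 at 3.62 and 4.84 in the adult. In all, 5 genes (Cd83, Isg20, Tbata, Ly75 and Slc22a7) had odds ratios above 1 in each of the 6 cortical libraries. The share of all genes with such ratios was not computed, so the count is a description only.

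Scn1a had lower ratios. Its odds ratio with Psmb11 lay below 1 in all 6 cortical libraries, between 0.43 and 0.69. This direction was not kept throughout, since with cells thinned to 1000 UMIs the ratio was 1.64 (counting interval 0.50 to 5.38) at E15.5 and 1.15 (0.41 to 3.22) in adult replicate 2. With Psmb11 or Prss16 as the mark it was 1.08 (0.51 to 2.25) in adult replicate 2. In adult cTEC, 12.2% of cells with Psmb11 and 16.9% of cells without it held Scn1a in replicate 1, and 5.05% and 9.78% did so in replicate 2. The counting intervals of the ratio reached past 1 in 3 libraries (E13.5, E15.5 and adult replicate 1) and ended at 0.85 at E17.5, 0.81 in NB and 0.97 in adult replicate 2. As a level over all UMIs, Scn1a stood at 71.7 CPM in the cells with Psmb11 and at 91.6 CPM in the cells without it in adult replicate 1, and at 31.3 and 39.7 CPM in replicate 2. In NB it stood at 8.92 against 33.8 CPM. At E13.5 and E15.5 the levels lay in the opposite order, at 2.66 against 1.61 CPM and 3.04 against 1.15 CPM (10 and 1 UMIs without Psmb11). For Tbata the same adult classes held 6882 against 894 CPM and 9432 against 149 CPM.

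Ackr4 and F830016B08Rik lay in between. The Ackr4 odds ratio was below 1 in 5 of 6 libraries and ranged from 0.71 to 1.26, with adult values of 1.26 and 0.79. That of F830016B08Rik ranged from 0.99 to 2.73, with adult values of 1.24 and 1.65. The adult cells without Psmb11 were shallower, at a median of 3371 and 5451 UMIs against 5012.5 and 8123 for those with it, and they held Ccl21a, a medullary chemokine, at 8302 and 2754 CPM against 2819 and 249 CPM. Bpifa1, which led a cluster in each data set with 38 cells of adult cTEC replicate 1 and 26 of replicate 2, was at 5986 and 5798 CPM in these cells against 395 and 8.57 CPM. Prss16, by contrast, was at 268 and 229 CPM in the cells without Psmb11, against 2879 and 3990 CPM. The part of depth, of medullary cells and of the Bpifa1 cells in these ratios was not tested beyond the thinning.

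**Figure D4:**
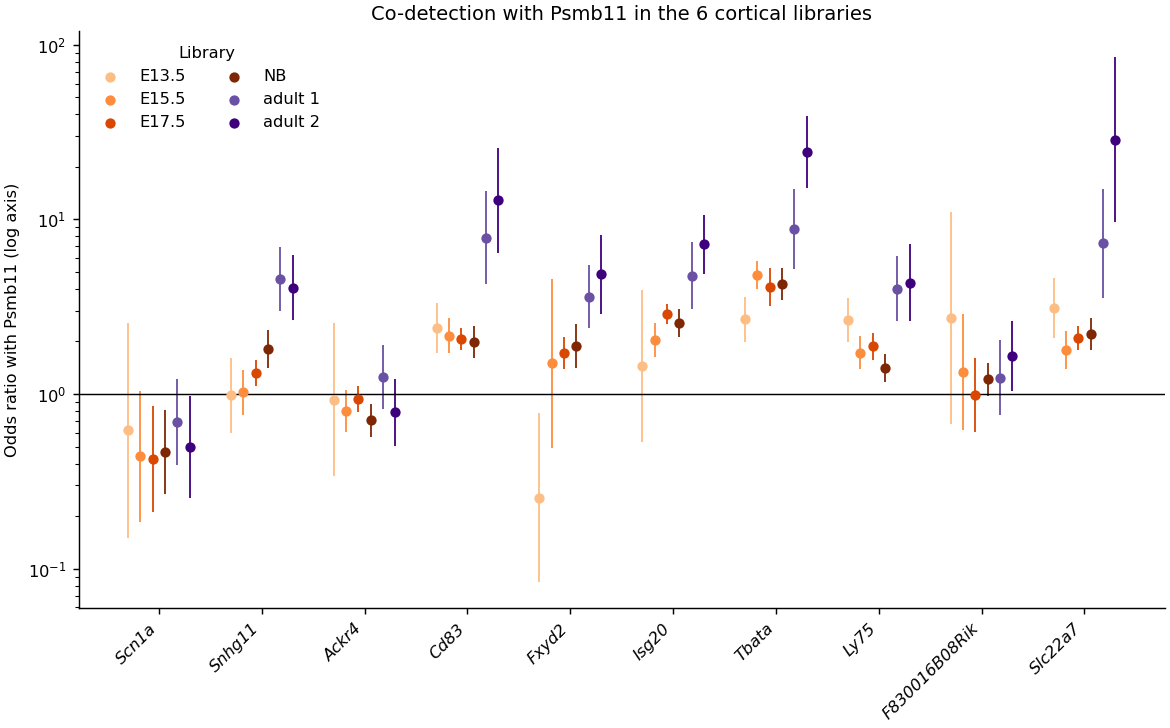
Odds ratio, on a log axis, of finding each gene in a cell with a Psmb11 UMI against a cell without, after thinning to 2000 UMIs, with 95% intervals that cover counting error only; each point is 1 of the 6 cortical libraries. The 6 Scn1a points lie below 1, between 0.43 and 0.69, while the 6 points of Tbata lie between 2.68 and 24.3.

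Pairs among the 10 genes were described in the same way. In adult cTEC replicate 2, the odds ratio between Tbata and Slc22a7 was 30.3 and that between Cd83 and Isg20 was 8.13. Scn1a had odds ratios below 1 with 8 of the other members there, from 0.13 with Cd83 (1 cell with both) to 0.72 with Snhg11, and of 1.71 with Ackr4 (10 cells with both). In replicate 1 its ratio was 1.19 with Ackr4, 1.70 with Ly75 and 0.56 to 0.90 with the other 7. In NB cTEC, a cluster of 1855 cells held Fxyd2 at 259 CPM, Tbata at 6523 and Isg20 at 878, whereas a cluster of 889 cells led by Cldn8 held them at 5.93, 1185 and 207 CPM. Scn1a stood at 5.91 CPM in the former and 17.6 CPM in the latter, Ackr4 at 80.2 and 145 CPM, and F830016B08Rik at 187 and 179 CPM. At E17.5 the haemoglobin-rich cluster held Ackr4 at 131 CPM and Tbata at 1697 CPM, against 80.3 and 8839 CPM in the largest cluster. The mean number of the 10 genes found in a thinned cell was 0.45 in total TEC of E13.5 and 2.07, 3.28 and 3.38 in E15.5, E17.5 and NB cTEC. It was lower again in adult cTEC, at 2.88 and 2.74, and stood at 0.57 and 0.86 in adult mTEC.

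The cell cycle had no part in the choice of the genes, and the difference between cycling and resting cells of the same library was tested. Cells were called cycling where a score of S and G2M phase genes was above 0, which gave 1473, 1147, 1188, 448, 10 and 44 cycling cells from E13.5 to adult cTEC replicate 2. Such classes are phase calls and no direct measure of division. The cyclin genes Ccna2 and Ccnb1, which are not in the score, stood at 62.7 to 220 CPM and 226 to 319 CPM in the cycling cells of the 6 libraries. In the resting cells they were at 0.48 to 6.52 CPM and 1.99 to 8.72 CPM. UMIs were summed per library and class and tested with edgeR, with the library as a term and adjustment over all 13628 genes. Of the 10 genes 8 were lower in cycling cells, where 18.6% of all genes were called lower and 15.4% higher. Of 11 genes well known as cortical, 7 were lower and 0 higher. The median log2 difference of the 10 was -0.97 against -0.06 over all genes tested.

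Tbata fell most, by 1.87 ± 0.18 on the log2 scale (SE; edgeR adjusted p = 3.8e-07). Cycling cells held 49.2 CPM against 274 in resting cells (E13.5), 867 against 2849 (E15.5), 2362 against 6266 (E17.5), 2241 against 4973 (NB), and 439 against 4176 and 2546 against 7690 in adult replicates 1 and 2. The classes differed in the same direction in 6 of 6 libraries. In adult replicate 1 the 10 cycling cells also held Psmb11 at 62.7 CPM (4 UMIs) against 685 and Prss16 at 172 against 1696 CPM. In replicate 2 Psmb11 stood at 667 against 1485 CPM. Cell type and phase therefore cannot be told apart in replicate 1. Fxyd2 fell by 1.52 ± 0.16 (edgeR adjusted p = 1.7e-06), from 616 CPM in resting to 129 CPM in cycling cells of adult replicate 2 and from 183 to 109 CPM in NB. Isg20 fell by 1.41 ± 0.12 (edgeR adjusted p = 8.8e-08), Snhg11 by 1.16 ± 0.16 (2.4e-05), Cd83 by 1.15 ± 0.14 (8.3e-06), Slc22a7 by 0.80 ± 0.14 (2.7e-04) and Ly75 by 0.59 ± 0.11 (4.3e-04). Each of these was lower in cycling cells in 6 of 6 libraries, as were 12.9% of 14170 genes with at least 50 UMIs. F830016B08Rik fell by 0.61 ± 0.14 (edgeR adjusted p = 0.0035), was lower in 5 of 6 libraries and did not pass without the E17.5 library (log2 difference -0.47, adjusted p = 0.055).

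Ackr4 and Scn1a did not pass. For Ackr4 the log2 difference was 0.03 ± 0.13 (edgeR adjusted p = 0.89), with 60.7 against 54.9 CPM at E15.5, 101 against 96.4 at E17.5 and 107 against 97.9 in NB, but 141 against 211 and 109 against 121 CPM in the adult replicates. At E13.5, however, 67 of its 68 UMIs came from the cycling cells, which were 1473 of 1857 cells there. For Scn1a the difference was 0.38 ± 0.22 (edgeR adjusted p = 0.19), with 4.62 against 2.34 CPM at E17.5 and 17 against 8.66 CPM in NB, but 2.03 against 3.26 CPM at E13.5, 47.0 against 82.1 and 24.5 against 34.5 CPM in the adult replicates. In the 4 fetal and newborn libraries alone, Scn1a was higher in cycling cells (log2 difference 0.64, edgeR adjusted p = 0.039), in 3 of 4 libraries and not at E13.5. The difference between adult and younger libraries in the response to cycling was not past the threshold for Scn1a (log2 -1.46 ± 0.45, edgeR adjusted p = 0.37), nor for any other of the 10 (lowest for Cd83, edgeR adjusted p = 0.070), and 0.147% of all genes passed it. Of these adult libraries, replicate 1 had 10 cycling cells only, so its cycling values rest on few UMIs. Cycling cells held between 1.2 and 1.5 times the UMIs per cell of resting ones, and Psmb11 (-1.23 ± 0.13), Prss16 (-1.11 ± 0.17) and Foxn1 (-0.56 ± 0.09) also fell, with edgeR adjusted p of 1.9e-06, 9.5e-05 and 8.3e-05.

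**Figure D5:**
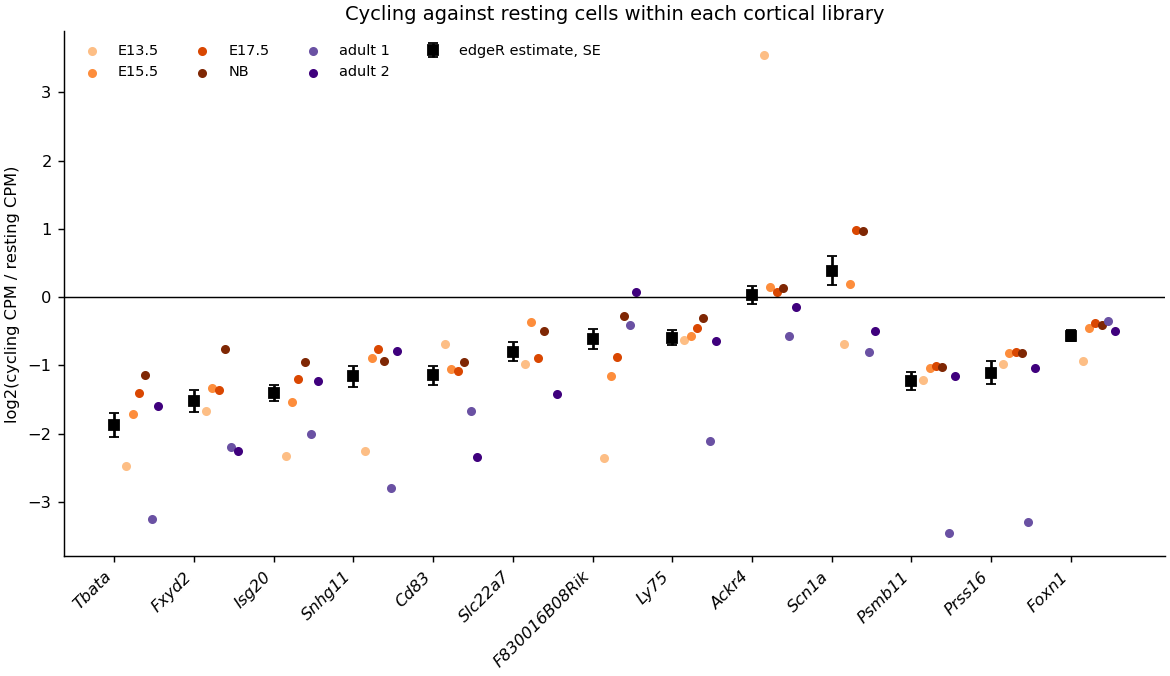
Log2 ratio of CPM in cycling to resting cells for the 10 genes, ordered by estimate, and for Psmb11, Prss16 and Foxn1; black squares are edgeR estimates with SE and coloured points the 6 cortical libraries (a library with 0 UMIs in either class has no point). Estimates run from -1.87 for Tbata to -0.59 for Ly75, and those of Ackr4 (0.03) and Scn1a (0.38) lie at or above 0.

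Relatives of the 10 genes were then read in the adult cTEC to mTEC fit, in lists chosen by family or pathway, beside a list of genes known as cortical. Of 84 related genes tested outside the cortical list, 14 (16.7%) were higher and 18 (21.4%) lower in cTEC, against 11.2% and 21.2% of all genes, so the share of lower genes was near that over all genes. With the cortical list, 42 of 95 were called. This count was 29 without the data set term, and with 1 adult library left out as well it was 25 and 20 without cTEC replicate 1 or 2 and 27 and 19 without mTEC replicate 1 or 2. Of 11 well known cortical genes, 10 were higher, led by Psmb11 (log2 7.32) and Cxcl12 (6.19), and Foxn1, which both lineages use, did not pass (0.89 ± 0.38, edgeR adjusted p = 0.060).

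The families differed in their counts. Of 9 tested sodium channel genes other than Scn1a, 5 were lower in cTEC, led by Scn8a (-5.06, 0.93 and 0 CPM against 11.4 and 10.5), while 2 were higher, among them the accessory subunit gene Scn4b (1.62). DESeq2 called 3 genes of the whole list. Of 10 tested organic ion transporters of the Slc22 family, 4 were lower in cTEC, and DESeq2 called 2 genes of the whole list. Among the 4 lower ones, Slc22a4 had no UMI in adult cTEC. With a limit of 3 counts per library it was at least 2.90-fold lower in data set 1 and 5.10-fold in data set 2. Of 12 tested genes of the FXYD family and the sodium pump, 3 were lower and 1 higher, shares near those over all genes. DESeq2 called 1 gene of that list. The lower ones included Fxyd7, which had no UMI in adult cTEC and was at least 2.38-fold lower in data set 1 and 3.74-fold in data set 2.

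Around Ackr4, 3 of 7 tested chemokine genes were lower in cTEC. They included Ccr7 (-5.33), the signalling receptor that shares its ligands, and Ackr1, another scavenger. Ackr1 had no UMI in adult cTEC and was at least 1.34-fold lower in data set 1 and 2.16-fold in data set 2. The ligand Ccl25 was higher (3.45). Of the mannose receptor family of Ly75, Mrc1 was lower (-3.98) and Cd302 higher (2.12) among 3 tested. Of 9 tested genes of MHC class II and its surface partners, listed for Cd83, 1 passed, Cd86 (-1.96), with 8.48 and 13.1 CPM in mTEC, whereas DESeq2 called 3 other genes of the list. H2-Ab1, a class II chain, stood at 6325 and 5587 CPM in cTEC against 7708 and 7156 in mTEC (log2 -0.39, edgeR adjusted p = 0.57).

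Among the interferon-inducible GTPases, the family of F830016B08Rik, 7 of 10 tested were higher in cTEC, with a median log2 difference of 1.67 against -0.14 over all genes. The largest were Tgtp2 (3.33, 82.9 and 26.2 CPM against 4.57 and 4.22) and Tgtp1 (3.14), which are near-identical copies between which reads may be shared. Of 10 genes listed for Isg20, Isg15 was higher (1.52) and Usp18 lower (-0.99). Among small nucleolar RNA hosts, 5 of 16 were in both gene lists, and Snhg18 (3.36) and Snhg9 (3.13) were higher. In the NEDD8 pathway, on which Tbata is thought to act, edgeR called 0 of 10 genes, with 2 at an unadjusted p under 0.05, and DESeq2 called 0 as well. In the cell cycle fit, by comparison, all 10 tested GTPases, 8 of the 10 genes listed for Isg20 and 8 of 9 genes of the class II list were lower in cycling cells, against 18.6% of all genes. So were 7 of the 11 genes of the cortical list and 5 of 9 sodium channel genes. Other lists held fewer lower genes, with 1 of 10 in the NEDD8 pathway, 1 of 6 Slc22 transporters, 1 of 5 small nucleolar RNA hosts and 2 of 6 chemokine genes. In the FXYD and sodium pump list 3 of 11 were higher, against 15.4% of all genes.

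Across the 8 libraries, the genes most like each of the 10 were sought by Pearson correlation of log2(CPM + 10) among 4812 genes that reached 50 CPM in at least 1 library. These correlations describe 8 points that share depth, data set and age. Scn1a was most like Sec62 (r = 0.981), Frmd4b (0.967) and Frmd6 (0.966), and Snhg11 most like Pygb (0.993), Clic5 (0.982) and Ackr4 (0.979). Ackr4 was most like Rgcc (0.994), Mgat3 (0.983) and Synm (0.982). Cd83 and Slc22a7 shared Ndufa11 as the closest gene (0.992 and 0.986), followed by G0s2 and Spon2 for Cd83 and by Tex264 and Trpm2 for Slc22a7. Isg20 (AI413582, Rras and Cstb) and Tbata (Phlda3, Sh2d4b and Rras) shared Rras at 0.974 each. Ly75 was most like Tmem53, Setd7 and Dguok (0.995 to 0.990), Fxyd2 like Cast, Tmem50a and Rassf2 (0.955 to 0.949), and F830016B08Rik like Rhoa, Sc5d and Tubb2a (0.966 to 0.945). Correlation with Psmb11 was highest for Ly75 (0.956) and Cd83 (0.951) and lowest for Fxyd2 (0.107) and Scn1a (0.471).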

How the data were processed

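Single-cell libraries were made with 10x Genomics Chromium v2 chemistry, and the authors deposited raw UMI counts per gene and cell in 8 matrices. Per the labels' processing notes, bcl2fastq 2.17, STAR 2.5.1b, Cell Ranger 2.0.1 and mm10 were used. Headers in the data set 2 matrices give Cell Ranger 3.0.1 instead. The labels give thymus as the tissue but name bone marrow as the source of the sorted suspension. Whether counting used strand is not given in the sources used here. The 10 genes, the lists and the tests were chosen with earlier results of these data known.

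Cells above 5% mitochondrial UMIs or above 5000 detected genes were dropped, and 27514 genes of both lists (at least 99.1% of UMIs per library) were used. Cells were clustered by data set (leidenalg 0.10.2, 2000 genes, 20 components, resolution 0.8). A cluster was set aside as another cell type where at least 3 and at least 50% of that type's markers were 4-fold higher (after adding 10 CPM), which left out parathyroid-like and thymocyte-like cells. An erythroid call also needed a marker other than the globin genes, such as Alas2, a rule set on the data. No doublet caller was run. UMIs were summed per library and tested with edgeR 4.0.16 (quasi-likelihood, filterByExpr, TMM, Benjamini-Hochberg, threshold 0.05) in R 4.3.3. Each SE was derived as the absolute log2 estimate divided by the square root of its F statistic. Replicates are separate libraries whose origin in separate animals is not stated, so p-values may measure technical spread. On simulated counts, edgeR recovered 175 of 200 genes changed by 2 (log2) in the lineage fit of 15627 genes and 200 of 200 changed by 1 in the cell cycle fit of 13628 genes. The changed genes were drawn from the more highly expressed genes only, so this recovery does not cover genes with low counts. Shares used cells thinned to 2000 UMIs, leaving out 4, 15, 89, 0, 65, 13, 0 and 123 shallower cells from E13.5 to adult mTEC replicate 2. Counting intervals (95%, exact) and limits for a count of 0 (3 counts) cover counting error only. Gene places are from the GENCODE annotation of GRCm38. Named genes were the 10, the 3 most like each, the 2 with the largest difference past the threshold in each related list, and Psmb11, Prss16, Foxn1, Aire and Epcam. Some related genes are counted but not reported by name here. Scn4b, Bpifa1, Ccna2, Ccnb1, Ccl25, H2-Ab1, Ccl21a, Acad11 and Gm13571 were added after their values were seen. Alternatives covered DESeq2 1.42.0, its size factors, no filter, no term for the data set, all clusters or cells, left-out libraries, other thinning depths and onset limits.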

Additional observations from a re-analysis of the deposited data

Results flagged for a closer look

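Fxyd2 and Snhg11 were drawn for a closer look because their odds ratio with Psmb11 within a library was below 1 at E13.5 and above 1 in both adult cTEC libraries. The odds ratio of Fxyd2 with Psmb11 was 0.26 at E13.5 (counting interval 0.084 to 0.78, 3 cells with both) and 3.62 and 4.84 in adult cTEC replicates 1 and 2. That of Snhg11 was 0.98 at E13.5, with a counting interval of 0.60 to 1.62 that includes 1, so that it points neither way, and 4.57 and 4.07 in the adult. The E13.5 library is total TEC, in which Fxyd2 stood mostly in the Krtdap and Krt5 cluster, and the E13.5 share of Snhg11 was not above that in parathyroid-like cells. The difference between ages was not tested, since E13.5 has 1 library.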

How the results depend on the processing

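The number of the 10 genes past the threshold in adult cTEC against mTEC was 10 in all alternatives but those leaving out 1 adult library, where it was 8 to 9. The calls lost were Fxyd2 (edgeR adjusted p up to 0.124), Tbata (up to 0.067) and Slc22a7 (0.071). In these fits the data set term was dropped as well, since it could not be fitted with 3 libraries. Dropping the term alone left 10. The number of genes past the threshold over the related lists and the cortical list together, 42, was 29 without the data set term. It was 20 to 25 without the term and 1 adult cTEC library and 19 to 27 without the term and 1 adult mTEC library. In the age trend, 4 of the 10 passed. That number, which the choice of the genes fixes in part, was 1 when replicate 1 of adult cTEC was left out and 2 when replicate 2 was. It was 4 without E13.5 TEC and 6 with DESeq2 (Ackr4 and Ly75 in addition). In the fetal and newborn libraries alone, with no data set term, it was 0, and edgeR called 0 of all genes. An unadjusted edgeR p under 0.05 was found there for 7 of the 10 and for 2465 of all 13726 genes, and nothing is read from these counts. In the cell cycle fit, 8 passed, and 7 to 8 did when 1 library was left out. Under an onset limit of 50%, 8 genes came on after E15.5 instead of 4, and under one of 10% 3 did. In the cell cycle fit, 118 of 120 estimates of single genes kept their side of the threshold. The exceptions were Scn1a in the fetal and newborn libraries (0.64) and F830016B08Rik without E17.5 (-0.47). Ackr4, which passed in none of these fits, changed sign among them, with estimates from -0.04 to 0.13. Leaving out the haemoglobin-rich cluster, an alternative chosen after seeing the data, moved the onset of Isg20 to E17.5. Over all genes, DESeq2 called 2604 in the lineage fit against 5063 with edgeR, and 2837 against 1083 in the trend. Counts were low for Scn1a, with 32 to 246 UMIs in each cortical library, and for F830016B08Rik at E13.5, with 17.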
